A study of Saccharomyces cerevisiae with 4 samples.

Results

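The genes described here encode proteins of the mitochondrial ribosome of *Saccharomyces cerevisiae*. They were taken by name, as every gene whose symbol is MRPL, MRPS, MRP or RSM followed by a number and whose value is present on at least 3 of 4 arrays. Of 65 such genes in the table, 62 had values on enough arrays, out of 6172 genes in all. Gene symbols came from a RefSeq table (assembly R64), and all 65 matched by locus tag. By the uniform protein names that this table lists as synonyms, 35 of the 62 belong to the large subunit and 26 to the small subunit. The remaining gene is *MRP8*, which carries the family's name but is not a ribosomal protein. *MRP10* and *MRPL15*, the other 2 family symbols in the gene table, were not analysed here.

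The mitochondrial ribosome is the machine that translates the few mRNAs of the mitochondrial genome, which in yeast code mainly for core subunits of the respiratory chain and of ATP synthase. Almost all of its proteins are encoded in the nucleus, made in the cytosol and imported, while its rRNAs come from the mitochondrial genome. Many of its proteins have counterparts in the bacterial ribosome, and others are found only in mitochondria. Yeast needs mitochondrial translation to respire, but can grow by fermentation on glucose without it.

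Two-colour cDNA arrays compared cells of a *mid2* mutant in the BY4741 background after 3 h with zymolyase at 0.8 units per ml with untreated cells of the same cultures, all grown in YEPD, a rich glucose medium, at 24 °C. Zymolyase digests cell wall glucan, and Mid2 is a cell surface sensor of wall damage. Both arms carried the mutation, and wild-type cells were not analysed here. The labels give 2 cultures, each hybridised in both dye orientations, and the treated cells were labelled with Cy3 for arrays 1 and 3 but with Cy5 for arrays 2 and 4.

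*MID2* had no value on any array, so the genotype could not be checked. For array 4, the growth comment of the untreated cells speaks of a *hog1* strain although their genotype field says *mid2*. *HOG1* itself was at 0.20, 0.55, −0.15 and 0.26 (log2 ratio) on arrays 1 to 4. The arrays held from 3585 (array 2) to 4965 (array 4) values. Base 2 was assumed for the deposited log ratios. A positive value is called likely higher in treated cells, because 10 genes known to be induced by zymolyase had medians of 1.65, 1.93, 2.35 and 1.93 on the 4 arrays. These are bulk RNA values, in which fewer cells with a transcript and less of it per cell cannot be told apart. No record says which arrays share a culture, so the spread behind the p-values may hold technical spread. For the members it was pooled over all genes tested, so the p-values do not measure a member's own spread between arrays.

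Of the 65 family genes, 58 had a value on all 4 arrays (89.2%), against 53.5% of all genes. The share was similarly high for cytosolic ribosomal protein genes (128 of 134, 95.5%) and for respiratory chain and ATP synthase genes (34 of 39, 87.2%). On array 2, the array with the most blanks, 4 of the 65 were blank (6.15%), against 42.1% of all genes. Brightness over background is unknown, so the level of these transcripts was not read. On the edge of the rule, *RSM22*, which encodes an assembly factor of the small subunit, had values on arrays 3 and 4 alone (−0.03 and −0.37). *MRPL40* had a value on array 4 alone (0.07), and *MRPL33* on none.

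After zymolyase, the transcripts of the mitochondrial ribosome had a median log2 ratio of −0.22, against −0.14 for all genes tested. No member passed the test: 0 of 58 had an adjusted p under 0.05 (limma, adjusted over all genes tested, under both possible pairings of arrays into cultures), against 4.15% of the 3299 genes tested. At an unadjusted p under 0.05 there was 1 member, *MRPL8*, against 10.8% of all genes. That count depended on the fit. It was 6 with arrays 1 and 4 as the only pairing (23.8% of all genes), and 3 each on 4 arrays with a dye term (16.1%), on 4 arrays without one (12.9%) and without array 2 (12.5%). Without array 1 it was 2, and the share of all genes is not given for that fit. Among all genes tested, 91 passed upward and 46 downward, so the share that passed downward was 1.39%, and the split was 46 and 9 with arrays centred and scaled to 1 spread. Adjusted p-values of the members ran from 0.179 to 0.992.

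The members' means over 4 arrays spanned a narrow range, from −0.70 for *MRPL8* to 0.21 for *MRPS18*. The quartiles lay at −0.30 and −0.12. For the 128 cytosolic ribosomal protein genes the quartiles were closer together, at −0.18 and −0.06, and the means ran from −0.53 to 0.47. The SD across members of these means was 0.16, against 0.41 across all genes tested. Only 1 of 58 members, again *MRPL8*, had a mean of 0.5 or more in either direction, against 13.0% of all genes, and no member reached 1. Every member had the same borrowed standard error of 0.28, the larger of those from the possible pairings, so each 95% interval reached 0.54 to either side of the mean. For 57 of the 58 members this interval lay within a change of 1 on the log2 scale, a 2-fold change, in either direction, and for *MRPL8* it ran from −1.24 to −0.15. Because all members shared 1 width, this count only restates the sizes of their means. The intervals leave out a member's own spread between arrays, which reached an SD of 1.06 for *RSM18*.

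**Figure D1:**
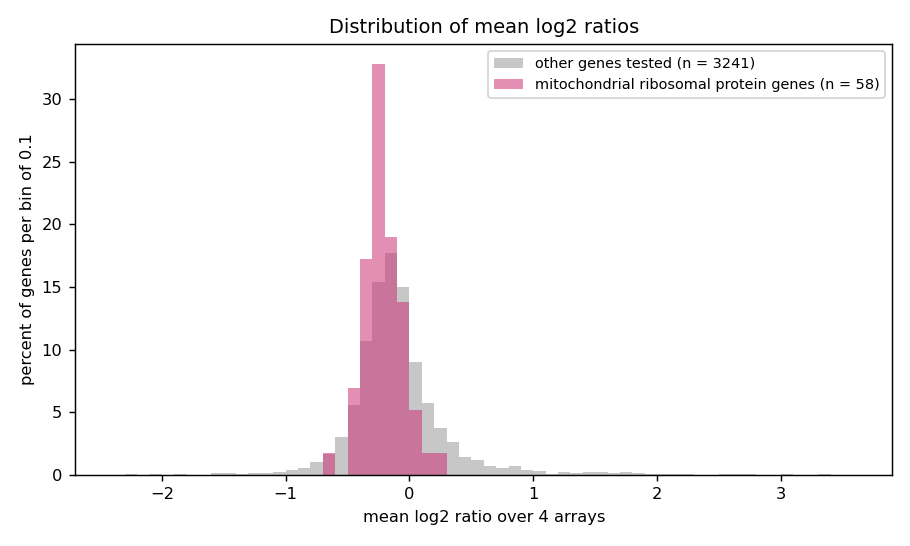
Mean log2 ratio over 4 arrays (x axis) against the percent of genes per bin of 0.1 (y axis), for the 58 mitochondrial ribosomal protein genes with 4 values and for the 3241 other genes tested. The members lie between −0.70 and 0.21, inside the main peak of the other genes, whose tails reach −2.21 and 3.37.

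Most members read slightly below 0, as most genes did. A mean below 0 was found for 53 of 58 members (91.4%), against 72.2% of all genes tested. Below the median of all genes tested lay 39 of 58 members (67.2%), against 50.0% of all genes. The members' median was thus 0.08 lower than that of all genes on the log2 scale. This gap was not the same on every array. The members' medians were −0.18, −0.58, −0.00 and −0.14 on arrays 1 to 4, and those of all genes −0.02, −0.37, −0.04 and −0.07. Members therefore read lower than all genes on arrays 1, 2 and 4, by 0.16, 0.21 and 0.07, and higher by 0.04 on array 3. Centring each array on its own median over all ORF rows, as in the centred fits, raised the median of all genes by 0.14. The members' median was then −0.08, and the number of members with a mean below 0 was 40, against 51.0% of all genes. Without array 4, whose labels disagree, that number was 47, against 66.2% of all genes, and the members' median was −0.18. Only 5 of 3299 genes passed without array 4, so it says little that no member did. Without array 2 the number of members with a mean below 0 was 39, against 55.8% of all genes.

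**Figure D2:**
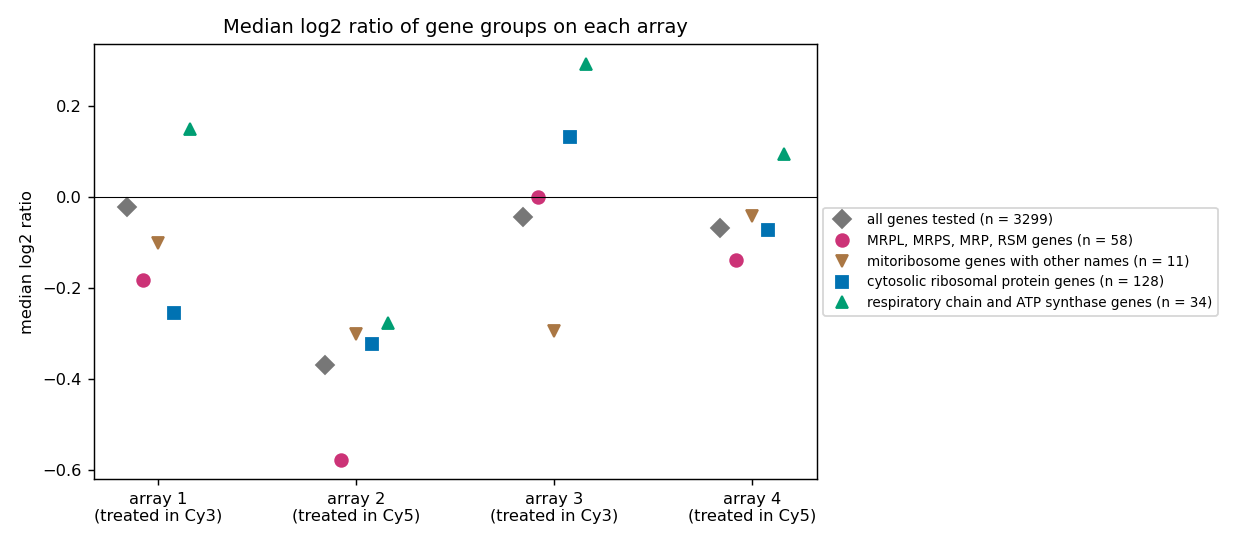
Median log2 ratio (y axis) of 4 gene groups and of all genes tested on each of the 4 arrays (x axis), 1 point per group and array. The MRPL, MRPS, MRP and RSM genes are lowest on array 2 (−0.58) and lie just above all genes on array 3 (−0.00 against −0.04).

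All 4 arrays were below 0 for 15 of 58 members (25.9%), against 17.0% of all genes tested, and above 0 for 1 (1.72%), against 6.15%. With each array centred on its median over the genes tested, 9 of 58 members (15.5%) were below it on all 4, against 8.67% of all genes. Of the 15 members below 0 on all 4 arrays as deposited, 9 were among the 33 tested of the large subunit and 6 among the 24 tested of the small subunit. Their means lay between −0.70 and −0.19.

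In the large subunit, the member furthest from 0 was *MRPL8*, whose product is the counterpart of bacterial ribosomal protein L17. It read −1.32, −0.39, −0.82 and −0.25 on arrays 1 to 4, a mean of −0.70 ± 0.48 (SD over 4 arrays of 2 cultures). It was below 0 on every array, and the Cy3-treated arrays both lay under the Cy5-treated ones. It did not pass (limma, adjusted p = 0.179). It passed with arrays 1 and 4 taken as the only pairing (limma, adjusted p = 0.0149) and with a robust variance prior (limma, adjusted p = 0.0486), in a range from 0.0149 to 0.873 over the alternatives.

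Among large subunit members with 4 values, *MRPL37*, for a protein found only in mitochondria, came next. It read −1.36, −0.41, 0.08 and 0.03, a mean of −0.41 ± 0.67. Its low mean rested on array 1, and its arrays 3 and 4 were just above 0. *MRPL6* (counterpart of bacterial L6) read −0.30, −0.94, −0.06 and −0.19, and *MRPL38* (counterpart of bacterial L14) −0.35, −0.89, −0.04 and −0.12. Both were below 0 on all 4 arrays and lowest on array 2. *MRPL39*, the counterpart of bacterial L33, read −0.55, −0.64, 0.02 and −0.22, so array 3 lay at 0. None of these passed, with adjusted p-values from 0.717 to 0.800 (limma).

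*MRPL28*, whose product has no bacterial counterpart, was one of the steadiest members, at −0.32, −0.46, −0.35 and −0.21 (mean −0.33 ± 0.10). *MRPL16*, the counterpart of bacterial L16, was as steady nearer to 0, at −0.08, −0.17, −0.06 and 0.06 (mean −0.06 ± 0.10, or 0.08 with arrays centred). *MRPL3*, which encodes another protein specific to mitochondria, read 0.11, 0.21, 0.30 and 0.08 (mean 0.18 ± 0.10). It was the 1 member above 0 on every array as deposited. *MRPL44* had a mean of −0.01 ± 0.47 with arrays that disagreed, at 0.53, −0.55, 0.19 and −0.22. The median of the 33 large subunit members was −0.20, and 32 of them had a mean below 0.

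In the small subunit, *RSM25* (a protein specific to mitochondria) was low and steady, at −0.50, −0.57, −0.36 and −0.33, with a mean of −0.44 ± 0.11 (limma, adjusted p = 0.678). *MRP21*, the counterpart of bacterial S21, read −0.64, −0.40, −0.53 and −0.09 (mean −0.41 ± 0.24). *MRPS9*, the counterpart of bacterial S9, had nearly the same mean as *RSM25* (−0.44 ± 0.94) from values of 0.56, −1.66, −0.58 and −0.09. Its range was thus over 2 log2 units, while that of *RSM25* was small. *RSM26*, whose product is related to superoxide dismutases, read −0.55, −0.43, −0.14 and −0.15. *MRP2*, the counterpart of bacterial S14, read −0.20, −0.86, −0.04 and −0.25, and *MRPS5*, the counterpart of bacterial S5, −0.28, −0.68, −0.07 and −0.22. These last 3 members were below 0 on all 4 arrays, with means from −0.34 to −0.31.

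At the other end of the small subunit, *MRPS18*, the counterpart of bacterial S11, had the highest mean of the family, 0.21 ± 0.30. It read 0.27, 0.41, 0.38 and −0.24, so array 4 opposed the others. *MRPS28*, the counterpart of bacterial S15, read 0.16, −0.25, 0.50 and −0.15, and *MRPS35*, specific to mitochondria, −0.20, −0.15, 0.35 and 0.08. Both had means within 0.1 of 0 and arrays on both sides of it. *MRP13*, also specific to mitochondria, read 0.31, −0.02, −0.26 and −0.09, and *MRP51* 0.60, −0.84, 0.11 and 0.07, for means of −0.01 and −0.02. The median of the 24 small subunit members was −0.26, and 21 of them had a mean below 0. The difference between the subunits was not tested.

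Members with a bacterial counterpart and those found only in mitochondria had the same median. It was −0.23 for the 36 tested members with a counterpart and −0.23 for the 21 without. *MRP8*, which is not a ribosomal protein, read 0.74, −1.28, 0.64 and −0.01 (mean 0.02 ± 0.93). Without it, the median of the other 57 members was −0.23. The 4 members with values on 3 arrays were outside the main test. *MRPL19* read −0.09, −1.45 and −0.21 on arrays 1, 2 and 4, *RSM19* −0.01, −0.99 and −0.12 and *MRP17* 0.56, −1.39 and 0.04 on the same arrays. *MRPL25* read −0.06, −0.45 and −0.18 on arrays 1, 3 and 4. Each of the first 3 was lowest on array 2, and none passed in a fit on at least 3 arrays, which drops the missing array from its culture mean (limma, adjusted p from 0.591 to 0.923).

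**Figure D3:**
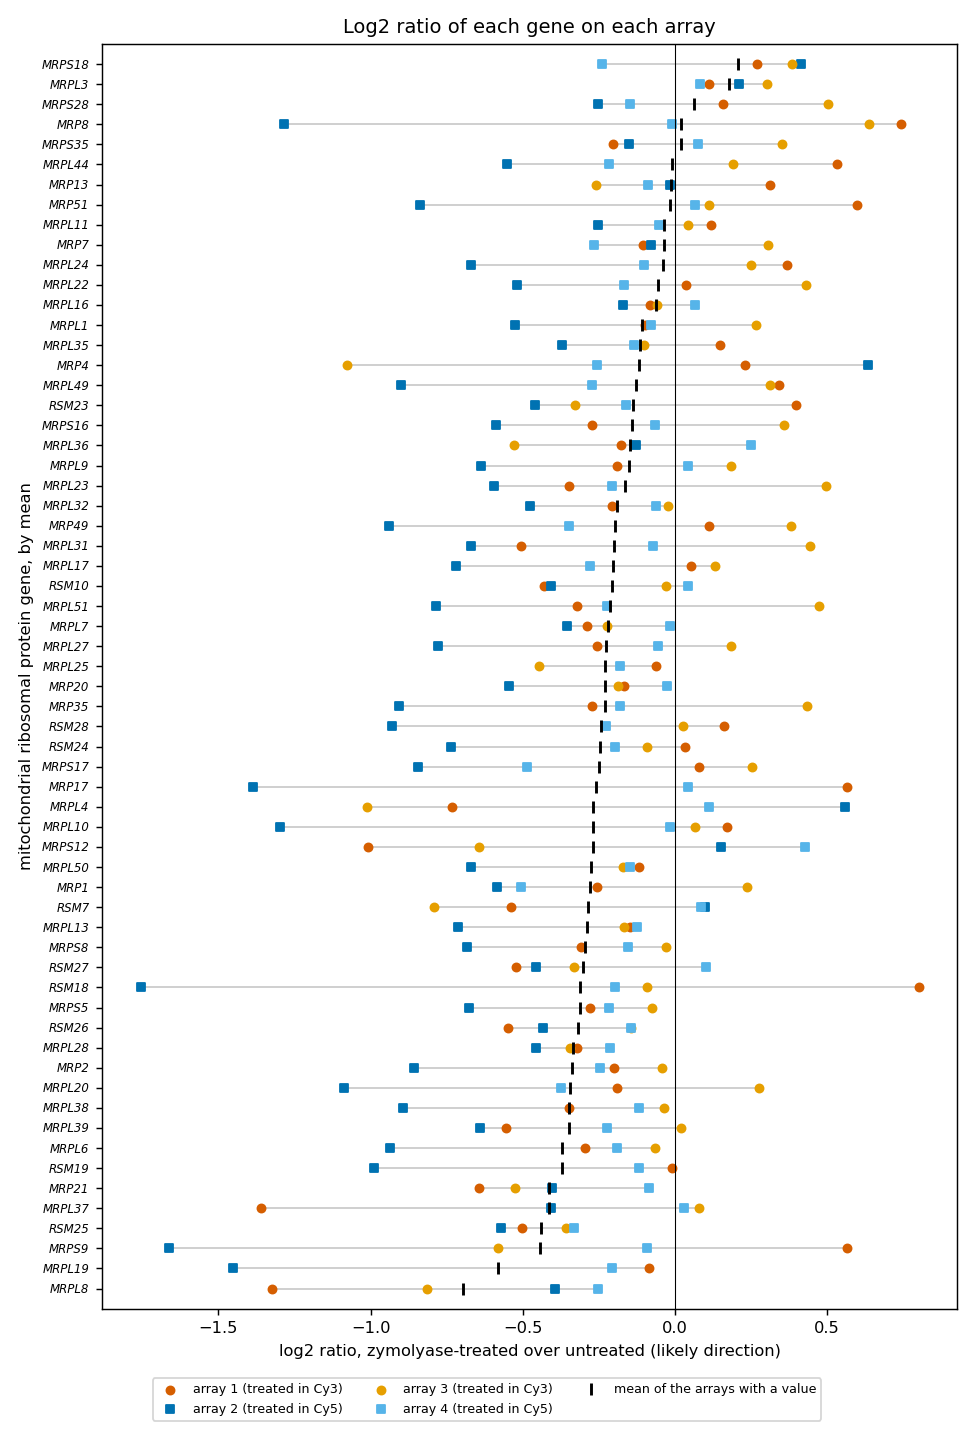
Log2 ratio (x axis) of each of the 62 mitochondrial ribosomal protein genes (y axis, ordered by mean) on each array, with circles for arrays with treated RNA in Cy3, squares for those with it in Cy5 and a black bar at the mean of the arrays with a value. Array 2 is the lowest point of 42 of the 58 genes with 4 values, and the means run from −0.70 to 0.21.

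The median SD over the 4 arrays of a gene was 0.37 for members and 0.39 for all genes tested. On single arrays the SD across members was 0.43, 0.46, 0.39 and 0.16 on arrays 1 to 4, against 0.59, 0.76, 0.62 and 0.34 across all genes, so members lay closer together than all genes on each array. Array 2 was the lowest of the 4 for 42 of 58 members, against 51.0% of all genes. Among members with 4 values, the widest spreads, other than those of *MRPS9* and *MRP8*, belonged to *RSM18* and *MRP4*. *RSM18*, the counterpart of bacterial S18, read 0.80, −1.75, −0.09 and −0.20 (SD 1.06). *MRP4*, the counterpart of bacterial S2, read 0.23, 0.63, −1.08 and −0.26 (SD 0.74). In *RSM18* arrays 1 and 2 opposed each other, whereas in *MRP4* arrays 1 and 2 were above 0 and arrays 3 and 4 below it.

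Across the 58 members, arrays of one dye orientation were weakly and positively correlated, and arrays of opposite orientation weakly and negatively. Pearson r was 0.32 within the Cy3-treated pair (arrays 1 and 3) and 0.33 within the Cy5-treated pair. The 4 pairs of opposite orientation gave values from −0.37 to −0.21 (Spearman 0.26 and 0.36 within an orientation and −0.31 to −0.16 between). Across all 3299 genes tested, pairs of opposite orientation gave Pearson values from 0.13 to 0.39 and Spearman values from −0.08 to 0.14, and pairs of the same orientation Pearson values of 0.42 and 0.48 and Spearman values of 0.39 and 0.41. These are correlations across genes, which share arrays and cultures and are not independent replicates. They were also below 0 between orientations for 128 cytosolic ribosomal protein genes (Pearson −0.42 to −0.36), and close to 0 for 34 respiratory chain and ATP synthase genes (0.01 to 0.17).

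**Figure D4:**
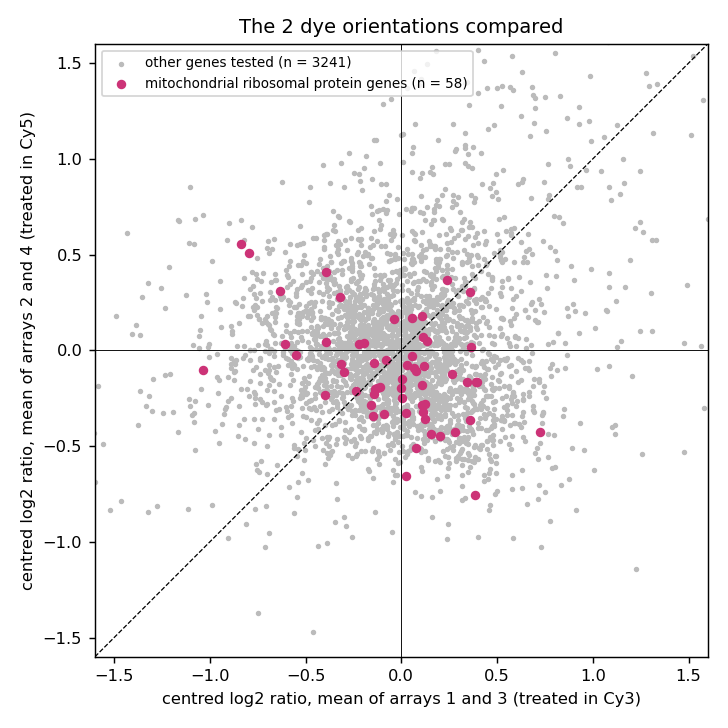
Mean of arrays 1 and 3 (x axis) against mean of arrays 2 and 4 (y axis), as log2 ratios with each array centred on its median over the genes tested, for 58 mitochondrial ribosomal protein genes and the 3241 other genes. The dashed line marks equal values, 84 genes lie outside the plotted range, and none of these is a member. The members scatter around the centre, on both sides of the line.

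The next comparisons used arrays centred on their medians over the genes tested. Both arrays of one orientation lay above both of the other for 27 of 58 members (46.6%), against 47.9% of all genes tested. The same comparison of arrays 1 and 2 with arrays 3 and 4 gave 24 members (41.4%), against 31.7%, and that of arrays 1 and 4 with arrays 2 and 3 gave 7 (12.1%), against 20.4%. The share split by dye was thus near that of all genes. The dye term, the mean of the Cy5-treated arrays minus that of the Cy3-treated ones divided by 2, had a median size of 0.19 over members and 0.19 over all genes as deposited. With arrays centred in that same way, these median sizes were 0.13 and 0.18. *MRPL4* and *MRPS12*, named after their values were seen, are counterparts of bacterial L29 and S12. *MRPL4* read −0.73, 0.56, −1.01 and 0.11, and *MRPS12* −1.01, 0.15, −0.65 and 0.43. Both were below 0 with treated RNA in Cy3 and above 0 with it in Cy5, so that their means of −0.27 describe neither orientation. *MRP8* and *MRPL49*, the latter, the counterpart of bacterial L21, also named after its values were seen and read at 0.34, −0.90, 0.31 and −0.27, ran the other way. A dye coefficient fitted on 4 arrays passed for 0 of 3299 genes (limma, adjusted p under 0.05). At an unadjusted p under 0.05 it was reached by 7 of the 58 members and by 12.9% of all genes as deposited. With arrays centred on their medians over all ORF rows, the same cutoff was reached by 6 members and 13.8% of all genes. The part of dye in the members' values beyond these measurements was not tested.

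The other genes of mitochondrial translation were taken from lists of known components. Of 11 tested mitochondrial ribosome genes with other names, none passed. All 11 had a mean below 0 (median −0.17), as did 72.2% of all genes tested. Below the median of all genes lay 7 of the 11, and the group's median minus that of all genes was −0.02. *MNP1*, the counterpart of bacterial L7/L12, read −0.95, −0.25, −0.75 and −0.24. *IMG1*, the counterpart of bacterial L19, read −1.33, 0.08, −0.98 and 0.05, and *IMG2* −0.20, −1.12, 0.45 and −0.23. *MNP1* and *IMG1*, like *MRPL8*, were lower where treated RNA was in Cy3, and *IMG2* was lower where it was in Cy5. Adjusted p-values were 0.459 for the first pair and 0.846 for *IMG2* (limma).

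Genes for the enzymes and factors that serve this ribosome were sparsely measured. All 4 values were present for 4 of 18 genes for tRNA synthetases and related tRNA enzymes, 2 of 11 translation factors, 9 of 22 translational activators and ribosome-bound factors and 5 of 13 genes of ribosome assembly and mitochondrial RNA synthesis, and none of them passed in either direction. *AIM10* and *MSW1*, which encode mitochondrial aminoacyl-tRNA synthetases for proline and tryptophan, read −0.70, −0.81, −0.89 and −0.09 and −0.43, −1.04, −0.85 and 0.01. Both were low on arrays 1 to 3 and near 0 on array 4 (limma, adjusted p = 0.298 and 0.383). *MSE1*, the glutamyl-tRNA synthetase gene, read −0.61, −0.34, −0.37 and 0.10. *TUF1*, for elongation factor Tu, had a mean of 0.23 ± 0.32 and *RRF1*, for the ribosome recycling factor, of −0.18 ± 0.40. *MDM38*, for an inner membrane protein that binds the ribosome, had a mean of 0.41 ± 0.68, while *CBS2*, an activator of cytochrome b translation, and *MBA1*, a ribosome receptor of the inner membrane, had means of −0.28 ± 0.52 and −0.25 ± 0.26. In the assembly list, *PUS5*, *MTG1* and *MRM1* had means of −0.32 ± 0.61, −0.19 ± 0.75 and −0.12 ± 0.30. Genes of the mitochondrial genome itself, which this ribosome translates, were not analysed here.

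The group was set beside cytosolic ribosomal proteins and beside the respiratory chain and ATP synthase, whose core subunits this ribosome makes. None of 128 cytosolic ribosomal protein genes passed, with a median of −0.12. Of these genes, 115 (89.8%) had a mean below 0, against 72.2% of all genes tested. However, only 47 of the 128 (36.7%) lay below the median of all genes, against 67.2% of the mitochondrial ribosomal protein genes. The means furthest from 0 among them were those of *RPL31B* (−0.53 ± 0.26), *RPL15B* (0.47 ± 0.60) and *RPS21A* (−0.47 ± 0.34). Their medians were −0.26, −0.32, 0.13 and −0.07 on arrays 1 to 4, so that they read lower than the mitochondrial ribosomal protein genes on array 1 and higher on the others. Of 34 respiratory chain and ATP synthase genes, 1 rose and none fell, with a median of −0.00 and 17 (50.0%) with a mean below 0. The riser was *NDE1*, the external NADH dehydrogenase gene, at 0.62, 0.61, 1.40 and 0.82 (limma, adjusted p = 0.0451). *QCR2*, for a core protein of the cytochrome bc1 complex, had a mean of 0.47 ± 0.20, and *CYC1*, for the main cytochrome c, of −0.46 ± 0.52, and neither passed.

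The median of the respiratory genes was above that of all genes on every array, by 0.17, 0.09, 0.34 and 0.16, while the mitochondrial ribosomal protein genes were above it on array 3 alone. On each array the respiratory median thus exceeded that of the mitochondrial ribosomal protein genes. The difference between these groups was not tested, since genes of a group share arrays and are no replicates.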

How the data were processed

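The authors deposited 1 log2-type ratio of both channels per ORF and array, whose base, numerator, background correction and normalization were not stated in the labels or file. Per the labels' protocols, cDNA was labelled with Cy3 or Cy5 and dyes were swapped. Of 6209 rows, 2 control rows were left out. ORF names were matched to RefSeq symbols by locus tag (5654 rows) or synonym (57), 496 kept their own name, and rows of 1 gene were averaged (6172 genes). Arrays were taken as already turned the same way. The 3299 genes with 4 values were tested with limma 3.58.1 in R 4.3.3: array pairs of opposite dye were averaged into 2 cultures, lmFit and eBayes set these against 0, and passing took a Benjamini-Hochberg adjusted p below 0.05 in each of the possible pairings, with the larger p printed. The residual degree of freedom was 1, so the spread was borrowed across genes. With array 1 paired with 2, the prior had infinite degrees of freedom, so a gene's own spread did not enter. With array 1 paired with 4, it had 12.7. Errors are SDs over 4 arrays, and precision is limited by how few arrays there are.

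The members, gene lists, tests and alternatives were chosen with earlier results of these data known. Named members were chosen among those with 4 values. They were those past the threshold, the 8 highest and 8 lowest means, the 4 widest and 4 narrowest spreads, and those of at least 0.3 in size in 1 direction on all arrays. In each list the 3 largest means and every gene that passed were named. Promoter motifs and protein features were planned but not computed, because no sequences were used here, and no sequence is printed.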

Additional observations from a re-analysis of the deposited data

Results flagged for a closer look

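Each of the 58 members with 4 values was tested for 1 array that stands apart, by dividing the distance of the most extreme array from the next one by the whole range and using Dixon's limit. In 3 members 1 array stood apart, and in each it was array 2, on which all genes read lower as a whole. Chance flags about 5% of groups, or 2.9 of 58, where the arrays share a centre. The values tested were as deposited and not centred, so that rate need not hold here. The share of all genes that the same rule would flag is not given. *MRPL10* (counterpart of bacterial L15) read −1.30 on array 2, against 0.17, 0.07 and −0.02 on arrays 1, 3 and 4. *MRPL13* (specific to mitochondria) read −0.71 there, with −0.15, −0.17 and −0.13 on the others. *MRPL50* (counterpart of bacterial L9) read −0.67 there, with −0.12, −0.17 and −0.15 on the others.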

How the results depend on the processing

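The count of members past the threshold was 0 of 58. It was 1 (*MRPL8*) with arrays 1 and 4, and 2 and 3, as the only pairing, where 306 of 3299 genes passed. It was also 1 (*MRPL8*) with a robust variance prior, where 160 of 3299 genes passed. The count stayed at 0 in the other 13 alternatives, of which leaving out *MRP8* was chosen after seeing the data. Leaving out *MRP8*, which did not pass, could not change the count. The pairing of arrays 1 with 2 and 3 with 4 alone repeated the main calls, so it is no separate check. The members' median moved by less than the spread between arrays in 15 of 15 alternatives. In several it could not move, because pairing, dye term, variance prior, separate rows and threshold leave the members' means unchanged. When single arrays were left out, it lay between −0.33 (without array 1) and −0.10 (without array 2). It was −0.08 with arrays centred and −0.07 with arrays centred and scaled, when the median of all genes moved up as well. Its gap to all genes kept its direction throughout, from −0.12 to −0.06, but pairing, dye term, variance prior and threshold could not move it either. Of 322 values of single named members under alternatives, 7 moved by more than their SD, all of them on centring, with or without scaling (*MRPL3*, *MRPL16*, *MRPL28* and *RSM25*). The 322 include the settings that leave a member's mean unchanged. The 137 calls over all genes became 47 with values on at least 3 arrays, 55 with centring and scaling, 306 with arrays 1 and 4 as the only pairing, 65 on 4 arrays without a dye term, and 5 to 101 without single arrays (47 without array 1, 73 without array 2, 5 without array 4). Precision is bounded by 4 arrays from 2 cultures, by not knowing which arrays share one, and by unknown spot brightness. Promoter motifs and protein features were not run, for want of sequences here.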
